A study of Mus musculus with 20 samples.

Results

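Catalase and 9 further antioxidant defence genes were followed in hearts of diabetic and control mice. The 10 genes were taken by symbol from a given list (Cat, Sod1, Sod2, Gpx1, Gpx3, Hmox1, Nqo1, Gclc, Gclm and Txnrd1). All 10 were among the 11856 genes of the expression table and among the 10344 genes tested. Hearts of 5 db/db and 5 db/+ mice, all labelled as C57BL/6, were each sequenced as input RNA and as RNA enriched by antibody for N6-methyladenosine (m6A), a methyl mark on messenger RNA, which gave 20 libraries. In db/db mice both copies of the leptin receptor gene are defective in all tissues, and the animals grow obese and diabetic, while db/+ mice carry 1 defective copy and stay lean. The groups follow the sample titles, although another label field names the db/+ mice wild type. No treatment is given, and the ages and sexes of the animals are not in the labels used here. Expression was read as FPKM (fragments counted per kilobase of transcript and scaled to the size of the library), and m6A as the authors' peak list of each heart.

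Superoxide dismutases turn superoxide into hydrogen peroxide, which catalase breaks down in peroxisomes and glutathione peroxidases reduce with glutathione. A further layer is switched by NRF2 (gene Nfe2l2), a transcription factor that KEAP1 keeps low until oxidants or electrophiles arrive, and that then binds antioxidant response elements together with a small MAF protein. Heart muscle takes most of its energy from oxidation of fatty acids in mitochondria, with a part of the very long chains shortened in peroxisomes, and both compartments form oxidants as they work.

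Promoter letters are shown for catalase, the member whose transcript rose in db/db hearts, and for the members with the core of an antioxidant response element near a start site. RefSeq promoter windows of GRCm38.p6, 250 bases before to 50 after a start site, were held for 8 of the 10 genes in 10 windows, all but Hmox1 and Gclc. The core was searched as TGACNNNGC on both strands and lay in 12.39% of all 32851 windows. It lay in the windows of Gclm, of Sod1 and of the second of 3 Txnrd1 windows, each time on the opposite strand, and its letters were not in those of Cat, Nqo1, Gpx1, Gpx3 and Sod2. Capitals mark the core in Gclm, Txnrd1 and Sod1, and CCAAT boxes (CCAAT) and the GC box (GGGCGG) of either strand in Cat. All lines run 5′ to 3′ on the gene's strand and end before the start site.
Cat, chr2:103485162-103485403, minus strand: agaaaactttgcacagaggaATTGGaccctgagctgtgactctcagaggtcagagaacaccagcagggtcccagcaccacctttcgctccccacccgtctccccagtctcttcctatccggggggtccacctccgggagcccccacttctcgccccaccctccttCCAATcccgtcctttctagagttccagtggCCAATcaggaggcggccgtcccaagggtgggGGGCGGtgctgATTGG
Gclm, chr3:122245307-122245548, plus strand: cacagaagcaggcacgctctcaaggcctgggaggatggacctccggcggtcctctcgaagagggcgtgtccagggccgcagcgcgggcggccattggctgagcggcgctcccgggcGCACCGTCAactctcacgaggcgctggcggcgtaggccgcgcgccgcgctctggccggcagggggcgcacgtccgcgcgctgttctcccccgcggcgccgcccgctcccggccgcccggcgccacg
Txnrd1, chr10:82859103-82859132, plus strand: actggatttttGCTTTGTCAttctgacacg
Sod1, chr16:90220695-90220724, plus strand: tgccaaggtggGCGTGGTCAgactcaggcc
The Cat window held 4 CCAAT boxes and 1 GC box, which 37.41% and 35.66% of all windows also held at least once. The forkhead letters TGTTTAC, in 3.65% of windows, were in none of the members' windows. Each match is one of letters only, and in the printed stretches no marked match overlaps another.

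Transcript levels spanned a wide range. By mean FPKM over the 10 hearts, a level per transcript length, the order was Sod1 at 327, Gpx3 at 185, Sod2 at 131, Cat at 95.5, Gpx1 at 45.4, Nqo1 at 30.4, Hmox1 at 10.7, Txnrd1 at 7.54, Gclc at 3.86 and Gclm at 3.72. Sod1 lay above Gpx3, Sod2 above Cat, Cat above Gpx1 and Txnrd1 above Gclc with no overlap over all hearts. The ranges of Gpx3 and Sod2, Gpx1 and Nqo1, Hmox1 and Txnrd1, and Gclc and Gclm overlapped across hearts. Those of Nqo1 and Hmox1 overlapped through the high Hmox1 value of db/+ heart 2. The superoxide dismutases and catalase were thus among the most abundant transcripts of the heart, with Cat at percentile 96.8 of the tested genes, while the glutathione synthesis pair sat at percentiles 42.3 and 40.9.

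Of the 10 genes, 1 passed the test between genotypes, Cat, and it rose. Of all tested genes 3.01% passed, 1.29% higher and 1.72% lower in db/db hearts (limma on log2(FPKM + 1), adjusted p under 0.05 over all 10344 genes). Among all genes 133 rose and 178 fell in db/db hearts, a balance that turned to 161 and 113 when library medians were set equal, 164 and 132 after quantile normalization, and 150 and 112 without mitochondrial transcripts. At an unadjusted p under 0.05, 4 of the 10 genes passed (Cat, Hmox1, Nqo1 and Gclm), beside 19.3% of all genes. The 2 genotypes did not overlap for 1 member, Cat, and for 6.41% of all genes, 2.23% with db/db higher and 4.18% with db/db lower. The members' fold changes had a median of 0.10 on the log2 scale and ran from -1.06 to 0.44, beside a median of -0.03 over all tested genes.

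**Figure D1:**
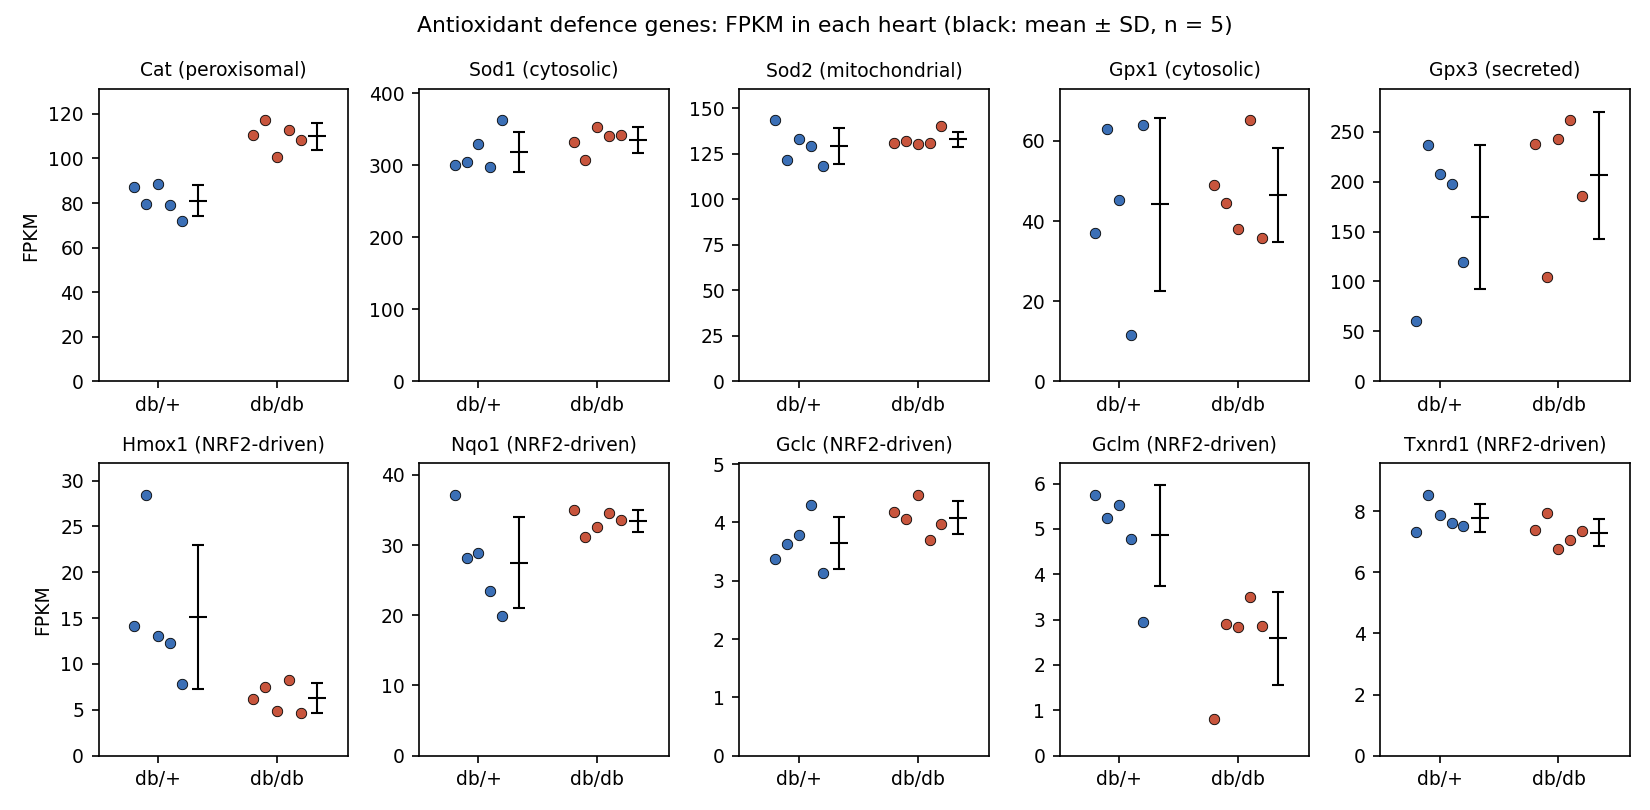
FPKM of each antioxidant gene (vertical axis, from 0) in the 5 db/+ hearts (blue) and 5 db/db hearts (red), each point 1 heart, with mean and SD in black (n = 5). The db/db values of Cat all lie above the db/+ values, those of Hmox1 and Gclm lie low, and Gpx1 and Gpx3 scatter widely within both genotypes.

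Catalase, the enzyme that splits hydrogen peroxide in peroxisomes, was higher in every db/db heart. Cat (ENSMUSG00000027187.10, chr2:103453849-103485160, minus strand) measured 87.2, 79.4, 88.4, 78.9 and 71.8 FPKM in db/+ hearts 1 to 5. The db/db hearts 1 to 5 gave 110.4, 117, 101, 113 and 108.5 FPKM. The lowest db/db heart thus stood above the highest db/+ heart. The means were 81.1 ± 6.81 and 109.9 ± 6.02 FPKM (SD, n = 5), a ratio of 1.355. On the log2(FPKM + 1) scale Cat rose by 0.44 (SE 0.07, 95% interval 0.29 to 0.59, limma adjusted p = 0.00782). Setting library medians equal gave 0.47 (limma adjusted p = 0.0122). It was called without each single heart in turn, with fold changes of 0.39 to 0.47. In whole hearts, more cells of a type and more RNA per cell cannot be told apart, and this holds for every value here.

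Values that move with genotype stand beside this result. The summed FPKM of 10 cardiomyocyte markers was 11170.5 to 13913.9 in db/+ hearts and 9815.3 to 10782.2 in db/db hearts, and 4 of the 10 (Tnnc1, Myl3, Mybpc3 and Myl2) fell. Cat thus rose while the summed muscle cell markers ran lower. Mitochondrial transcripts took 33.48% to 43.32% of the FPKM in db/+ hearts and 41.96% to 44.73% in db/db hearts. The lowest share was that of db/+ heart 5. That heart had the lowest Cat value, the longest peak list and the highest adipocyte marker sum. Without that heart the Cat difference was 0.39 (limma adjusted p = 0.0101), and without mitochondrial transcripts it was 0.47 (limma adjusted p = 0.012). The part of cell make-up in the rise was not tested.

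The superoxide dismutases did not pass the test. Sod1, which works in the cytosol (chr16:90220742-90226322), measured 299.8, 305, 329, 297 and 362 FPKM in db/+ hearts. The db/db hearts gave 332, 307, 353, 341 and 342 FPKM. Its values overlapped throughout, and the log2 difference of 0.07 had a 95% interval of -0.07 to 0.22 (limma adjusted p = 0.574). Sod2, the manganese enzyme of the mitochondrial matrix (chr17:13007839-13018119), measured 143, 122, 133, 129 and 118 FPKM in db/+ hearts. It measured 131, 132, 130.3, 131 and 140.1 FPKM in db/db hearts, where 4 of the 5 lay within a very narrow band. Its log2 difference was 0.04, with an interval of -0.09 to 0.18 (limma adjusted p = 0.739). For both genes the 0.44 of Cat lay outside the interval.

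The glutathione peroxidases varied more between animals than between genotypes. Gpx1, the cytosolic and mitochondrial selenoenzyme (chr9:108338903-108340343), ranged from 11.5 to 64.0 FPKM in db/+ hearts and from 35.9 to 65.1 FPKM in db/db hearts. The lowest value belonged to db/+ heart 4, and without that heart the log2 difference turned from 0.25 to -0.16. Gpx3, the secreted form found in plasma (chr11:54902453-54910377), measured 60.4, 236.5, 208, 198 and 119.9 FPKM in db/+ hearts. The db/db values were 237, 104, 243, 261 and 185 FPKM, so both genotypes held high and low hearts. The log2 differences of 0.25 for Gpx1 and 0.41 for Gpx3 had intervals of -0.59 to 1.09 and -0.38 to 1.20 (limma adjusted p = 0.773 and 0.574). Changes of the size seen for Cat could not be told from none in these 2 genes at this spread, and without db/+ heart 1 the Gpx3 difference was 0.09.

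Among the 5 genes that NRF2 is known to drive, none passed the test, and their differences had no common direction. Hmox1, heme oxygenase, which frees iron, biliverdin and carbon monoxide from heme (chr8:75093621-75100589), measured 14.1, 28.5, 13.03, 12.3 and 7.82 FPKM in db/+ hearts. The db/db hearts gave 6.14, 7.52, 4.86, 8.29 and 4.62 FPKM. All db/+ hearts but heart 5 lay above all db/db hearts, and heart 5 fell inside the db/db range. The means were 15.1 ± 7.83 and 6.29 ± 1.61 FPKM (SD, n = 5), a log2 difference of -1.06 (95% interval -1.64 to -0.48, limma adjusted p = 0.0558). Hmox1 thus had the largest difference of the 10 genes and missed the threshold narrowly. Hmox1 passed under 4 of 21 alternatives, with a limma adjusted p of 0.0245 to 0.129 over all of them. These 4 were without db/+ heart 5, with -1.25 (limma adjusted p = 0.0247), and without heart 5 of both genotypes. The others were with array quality weights and with only genes of at least 5 FPKM tested. The summed FPKM of 12 macrophage markers, cells rich in heme oxygenase, was 175.7 to 338.0 in db/+ hearts and 206.3 to 286.7 in db/db hearts. Of the 12, 1 was called, beside 3.01% of all genes. It was Vsig4, a receptor of resident macrophages, which rose from 3.55 ± 0.79 to 9.94 ± 2.50 FPKM with no overlap (log2 difference 1.25, limma adjusted p = 0.00491). Over the 12 the median log2 difference was 0.03, and 8 of the estimates were positive. The highest macrophage sum was in db/+ heart 2, which also had the highest Hmox1. The next highest, 291.6, was in db/+ heart 5, which had the lowest Hmox1 of the db/+ hearts. The lowest sum, 175.7, was in db/+ heart 1, where Hmox1 was at 14.1 FPKM. Without db/+ heart 2 the Hmox1 difference was -0.81 (limma adjusted p = 0.0566). The part of these cells in the Hmox1 difference was not tested.

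Gclm, the modifier subunit of the enzyme that starts glutathione synthesis (chr3:122245557-122270732), also ran lower in db/db hearts without passing the test. It measured 5.76, 5.24, 5.54, 4.79 and 2.96 FPKM in db/+ hearts. The db/db hearts gave 0.813, 2.91, 2.84, 3.50 and 2.87 FPKM, and the one crossing was db/+ heart 5, which lay below db/db heart 4. The log2 difference was -0.75 (95% interval -1.25 to -0.24, limma adjusted p = 0.111), and without db/db heart 1, the lowest, it was -0.52. A pseudogene, Gm6061, overlaps the gene. Gclc, the catalytic subunit of the same enzyme (chr9:77754535-77794485), ranged from 3.13 to 4.29 FPKM in db/+ hearts and from 3.71 to 4.48 FPKM in db/db hearts. Its log2 difference was 0.13 (limma adjusted p = 0.370), so the subunits had estimates of opposite sign.

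Nqo1, which reduces quinones (chr8:107388225-107403206, minus strand), measured 37.2, 28.1, 28.8, 23.4 and 19.9 FPKM in db/+ hearts. The db/db hearts lay close together, at 35.0, 31.1, 32.6, 34.5 and 33.6 FPKM. All db/db hearts were above 4 of the 5 db/+ hearts and below db/+ heart 1. The log2 difference was 0.30 (95% interval 0.01 to 0.59), which did not pass over all genes (limma adjusted p = 0.242). Txnrd1, the cytosolic thioredoxin reductase (chr10:82833951-82897712), ranged from 7.33 to 8.55 FPKM in db/+ hearts and from 6.76 to 7.93 FPKM in db/db hearts. Its log2 difference was -0.08 (95% interval -0.22 to 0.06, limma adjusted p = 0.515), and it shares ground with Eid3 and a long noncoding gene, Gm38560. Of the 5 NRF2-driven genes, 2 had a positive estimate, and the median was -0.08.

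**Figure D2:**
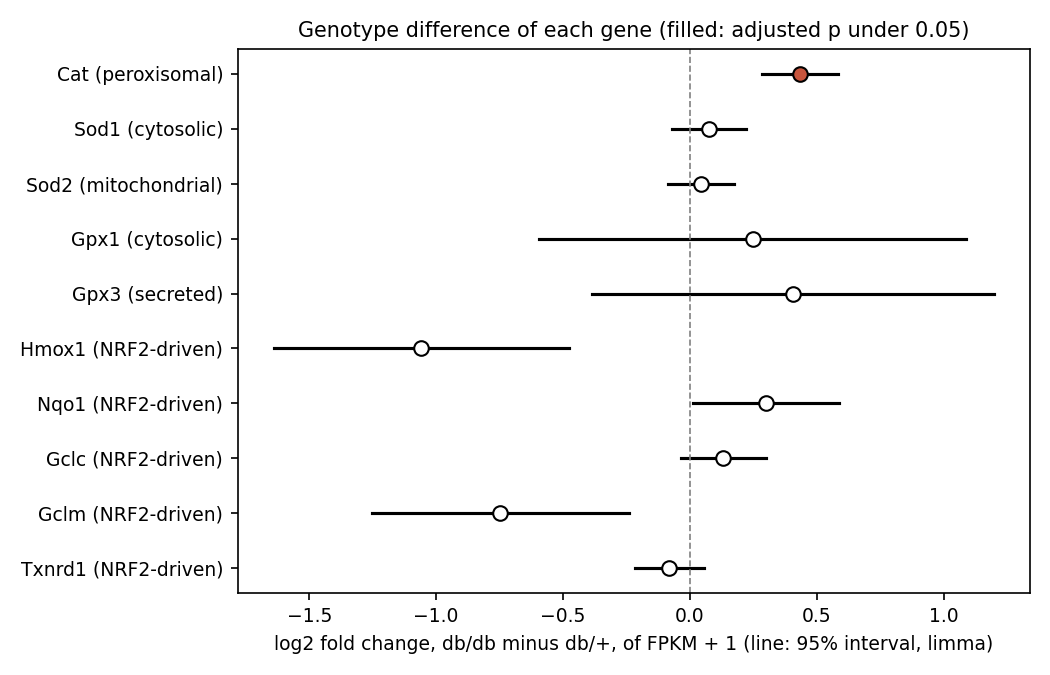
Log2 fold change of FPKM + 1, db/db minus db/+, for each antioxidant gene (horizontal axis), with the 95% interval of the limma fit as a line and a filled point where the adjusted p was under 0.05. Cat is the one filled point, at 0.44, with a short interval, while Hmox1 at -1.06 and Gclm at -0.75 lie on the other side with long ones.

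Whether Cat differed in its response from the other members was tested within hearts. For each heart log2(FPKM + 1) of another gene was taken from that of Cat, which removes most of the library scaling, less of it for genes near the pseudocount of 1, and the genotypes were compared with an exact two-sided permutation test, adjusted over the 9 differences. The smallest p that 5 hearts against 5 allow is 0.00794. Cat was known to rise when these differences were laid out, so they describe which genes it parted from rather than show anew that it rose. Cat gained on 6 of the 9 genes. Against mitochondrial Sod2 the gain was 0.39 on the log2 scale (exact p = 0.00794, adjusted p = 0.0179, higher in 5 of 5 db/db hearts than in any db/+ heart). Against cytosolic Sod1 it was 0.36 (exact p = 0.0159, adjusted p = 0.0286), with 4 of 5 db/db hearts above all db/+ hearts.

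Among the NRF2-driven genes the gain of Cat was 1.50 on the log2 scale over Hmox1, 1.18 over Gclm and 0.52 over Txnrd1, each with an exact p of 0.00794, an adjusted p of 0.0179 and no overlap between genotypes. The change of Cat itself was 0.44, and the rest was that of the other gene: -1.06 for Hmox1, -0.75 for Gclm and -0.08 for Txnrd1. Over Gclc it was 0.30 (exact p = 0.0238, adjusted p = 0.0357), a call lost in 9 of 12 alternatives, among them a pseudocount of 0.1 (adjusted exact p = 0.0595). With that pseudocount the gain over Gclm was 1.43. No gain passed over Nqo1, at 0.14 (exact p = 0.294, adjusted p = 0.378). Nor did one over Gpx1, at 0.19 (exact p = 0.754), or over Gpx3, at 0.03 (exact p = 0.921), whose values spread widely. Cat thus passed against the mitochondrial gene, 1 of the 3 cytosolic or secreted genes and 4 of the 5 NRF2-driven genes, Gclc with the reserve just given.

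Of 9 regulators of NRF2 tested, 0 rose and 1 fell by limma, where 3.01% of all genes were called. An unadjusted p under 0.05 was found for 3 of the 9, beside 19.3% of all genes, and no overlap between genotypes for 2 of the 9, Mafg and Nfe2l1, beside 6.41%. The one that fell was Mafg, a small MAF partner of NRF2, from 8.09 ± 0.51 to 6.44 ± 0.52 FPKM (log2 difference -0.29, limma adjusted p = 0.0466). Nfe2l1, a relative of NRF2, averaged 28.9 and 33.5 FPKM (0.21, limma adjusted p = 0.114). Nfe2l2 itself averaged 18.3 and 17.6 FPKM (limma adjusted p = 0.683), and Keap1 averaged 9.79 and 9.19 FPKM (limma adjusted p = 0.629). The repressor Bach1, which displaces NRF2 at the heme oxygenase gene, had a difference of -0.28 (limma adjusted p = 0.113). Transcript levels do not show how much of these proteins was in the nucleus.

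Of 27 other NRF2 target genes tested, 2 rose and 0 fell, with a median of -0.03, where 1.29% of all genes rose and 1.72% fell. Me1, the cytosolic malic enzyme that makes NADPH, rose from 33.4 ± 2.31 to 42.8 ± 0.35 FPKM (log2 difference 0.35, limma adjusted p = 0.00941). Gsta4, a glutathione transferase that clears the lipid aldehyde hydroxynonenal, rose from 58.6 ± 6.55 to 86.3 ± 8.39 FPKM (0.55, limma adjusted p = 0.00982). In both genes the db/db hearts lay wholly above the db/+ hearts, which held for 2.23% of all genes. They lay wholly below for 1 of the 27, beside 4.18% of all genes. That gene was Sqstm1, at 94.5 ± 9.41 and 73.9 ± 8.54 FPKM (-0.35, limma adjusted p = 0.0709). An unadjusted p under 0.05, in either direction, was found for 6 of the 27, beside 19.3% of all genes. Of the 27, 11 had a positive estimate, beside 4390 of all 10344 genes.

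The genes of the glutathione cycle, 19 tested, gave 0 rises and 1 fall, where 1.29% of all genes rose and 1.72% fell. Chac1, which breaks glutathione down in the cytosol, fell from 3.31 ± 0.80 to 1.31 ± 0.34 FPKM (log2 difference -0.89, limma adjusted p = 0.00844). Of 14 thioredoxin and peroxiredoxin genes, 0 passed by limma and 3 had an unadjusted p under 0.05. The smallest p belonged to Sesn1, a sestrin, at -0.28 (limma adjusted p = 0.122), and Txnip, the thioredoxin inhibitor that responds to glucose, stood at 159 ± 15.9 and 194.5 ± 31.2 FPKM (0.28, limma adjusted p = 0.185). Of 14 mitochondrial redox genes, 0 passed and 2 had an unadjusted p under 0.05, with Ucp2, an inner membrane carrier, at 8.63 and 12.8 FPKM (0.54, limma adjusted p = 0.0638). Counts of 0 in lists of this size are near the 3.01% called among all genes.

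Catalase is a peroxisomal protein, and some genes of that organelle rose as well. Of 26 peroxisomal enzymes tested, catalase aside, 2 rose and 0 fell: Ephx2, soluble epoxide hydrolase, from 119 ± 6.28 to 156 ± 6.71 FPKM (0.38, limma adjusted p = 0.00539), and Eci2, an isomerase of unsaturated fatty acid oxidation, from 21.1 ± 0.77 to 26.8 ± 2.70 FPKM (0.33, limma adjusted p = 0.0314). Of 16 genes of peroxisome assembly, 1 rose, Pex11a, which drives peroxisomes to multiply, from 6.71 ± 0.89 to 11.4 ± 1.51 FPKM (0.69, limma adjusted p = 0.0059). Of all tested genes 1.29% rose and 1.72% fell. The genotypes did not overlap, with db/db higher, for 4 of the 26 enzymes and 3 of the 16 assembly genes, beside 2.23% of all tested genes. With db/db lower this held for 0 genes of either list, beside 4.18%. An unadjusted p under 0.05, in either direction, was found for 8 of the 26 and 4 of the 16, beside 19.3% of all genes. The medians of both lists, each -0.03, nevertheless lay at that of all genes, with 12 of 26 and 7 of 16 estimates positive. Past the genes named, none in either list passed the test.

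Among enzymes that form oxidants, 1 of 11 tested rose and 0 fell, where 1.29% of all genes rose and 1.72% fell. It was Maob, the outer mitochondrial membrane monoamine oxidase that gives off hydrogen peroxide, from 23.0 ± 3.41 to 32.2 ± 2.71 FPKM (log2 difference 0.47, limma adjusted p = 0.0362). Of 14 metal-binding and other antioxidant genes, 1 rose, Msrb3, a methionine sulfoxide reductase, from 31.9 ± 1.75 to 40.2 ± 1.57 FPKM (0.33, limma adjusted p = 0.014). Of 11 genes of heme metabolism, the substrate pathway of Hmox1, 0 passed by limma and 1 had an unadjusted p under 0.05. That gene was Alas1, the first enzyme of heme synthesis, at 13.8 ± 6.46 and 22.1 ± 3.12 FPKM (0.73, limma adjusted p = 0.0992). Of 11 other redox-responsive transcription regulators, 0 passed and 3 had an unadjusted p under 0.05, led by Foxo3, a forkhead factor known to act on antioxidant genes, at -0.34 (limma adjusted p = 0.0528).

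**Figure D3:**
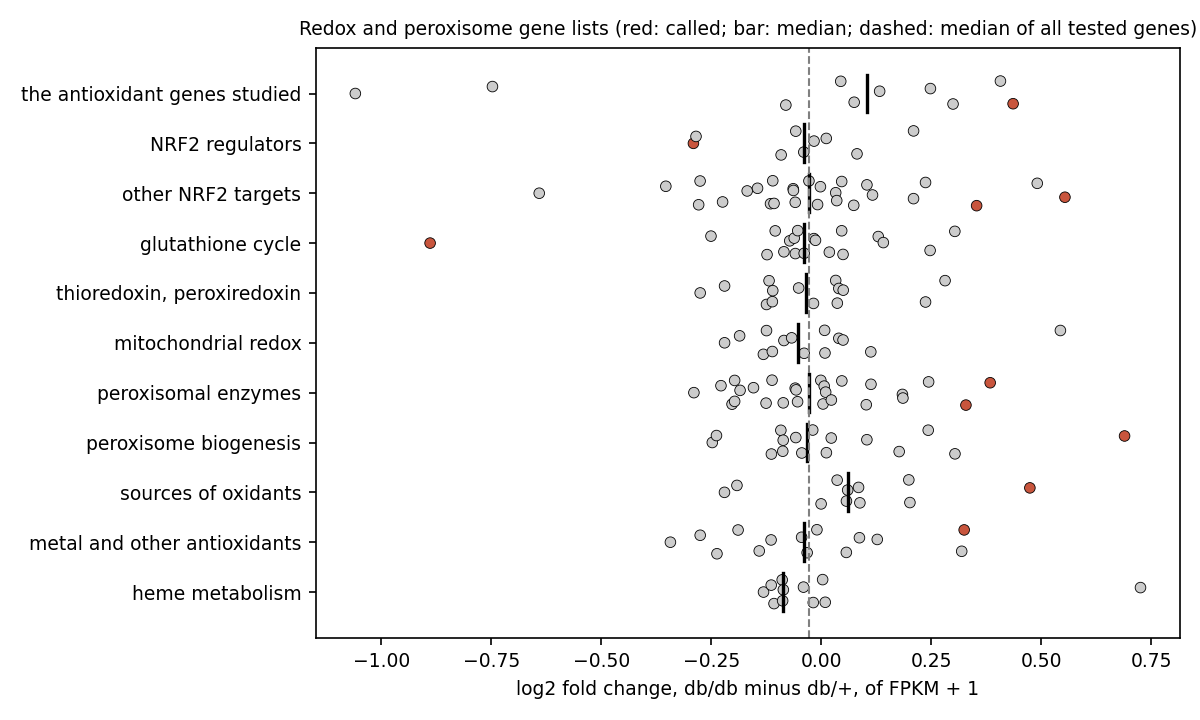
Log2 fold change, db/db minus db/+, of every tested gene (points) in the lists of redox and peroxisome genes named on the vertical axis, red where the limma adjusted p was under 0.05, with each list's median as a bar and the median of all tested genes, -0.03, as a dashed line. Red points are few in each list, and the medians of most lists lie near the dashed line.

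Other cell types were checked by their markers. Sums of fibroblast markers (8 genes) were 179.6 to 263.0 FPKM in db/+ and 195.3 to 267.8 FPKM in db/db hearts, and those of endothelial markers (8 genes) 132.3 to 173.1 and 137.6 to 177.3 FPKM. Smooth muscle sums (6 genes) were 189.3 to 260.7 and 223.8 to 309.8 FPKM. White adipocyte sums (9 of 10 listed genes in the table, Lep and Adrb3 at 0 in a heart) were 175.7 to 472.0 and 182.6 to 283.0 FPKM, and brown adipocyte sums (3 of 5, Ucp1 at 0 in a heart) 35.4 to 176.6 and 50.5 to 74.6 FPKM. Blood also differed between hearts: erythroid sums (5 of 8) were 197.2 to 1463.8 and 205.0 to 3938.7 FPKM, and neutrophil sums (2 of 6) 0.7 to 16.7 and 4.7 to 23.8 FPKM. None of the 8 lymphocyte markers was in the table. Of 8 white adipocyte genes tested, 1 was called, beside 3.01% of all genes. It was Cfd, which encodes adipsin and fell from 52.3 ± 42.3 to 5.46 ± 4.91 FPKM (log2 difference -2.89, limma adjusted p = 0.0411). The median of the 8 was -0.78, and 2 had a positive estimate, Lep and Fabp4. Lep stood at 0.15 ± 0.27 and 2.78 ± 2.81 FPKM (1.44, limma adjusted p = 0.0860). Fabp4 had the highest level of the list, 177 ± 24.8 and 183 ± 14.5 FPKM. A list of 11 genes that respond to tissue handling summed to 68.0 to 93.3 and 56.7 to 76.3 FPKM. Of these, 1 had a positive estimate, the median was -0.16, and Ier3, an early response gene, fell from 30.3 ± 3.49 to 23.7 ± 1.63 FPKM with no overlap (-0.34, limma adjusted p = 0.048). The part of these in the members' differences was not tested.

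The genes whose course over the 10 hearts was most like that of Cat were Creg1, Clec1a, Slc25a20, Me1 and Pex19. Likeness was the root mean square difference between the log2 levels of both genes after each gene's mean was taken off, and it was 0.0686 for Creg1 and 0.0963 for Pex19, where the median over all tested genes was 0.296. For Hmox1 the nearest were 2210407C18Rik, Klhl33, Mybpc2, Tcp11l2 and Slc25a33, at 0.288 to 0.354, against a median of 0.692. The nearest genes thus lay farther from Hmox1, whose values also vary more, than from Cat.

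The m6A lists held 64 peaks on 7 of the 10 genes, which merged over hearts into 9 regions. Peaks are given by the authors' caller with a fold of pulled-down over input signal. Folds are printed heart by heart and were not tested between genotypes, and an alternative kept only peaks with a fold of at least 2. Cat, Sod1 and Sod2 had a peak in all 10 hearts, as 20.2% of tested genes and 51.2% of those with a mean of at least 50 FPKM had. Gpx1, Hmox1 and Gclc had no peak listed in any heart, as 27.3% of tested genes. Of genes averaging 50 FPKM or more, a level just above that of Gpx1, 12.7% had no peak, and of genes at 1 to 10 FPKM 32.7%. No peak listed means that none passed the caller, not that the transcript was free of the mark. Of the member peaks, 78.1% lay in the 3′ untranslated part alone and 6.2% in coding sequence alone, while over all peaks of the 10 lists the shares were 36.4% and 42.9%. The member peaks are the same 9 regions counted again in each heart, with 22 peaks on Sod2 and 13 on Cat. The 4 peaks in coding sequence alone were all of 1 Txnrd1 region in 1 heart. The shares thus describe few sites.

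Catalase carried a single m6A region near the end of its transcript, chr2:103453968-103454710, in the 3′ untranslated part, in 5 of 5 hearts of each genotype. The peak with the smallest p in each heart, which also had the highest fold of the region there, had a fold of 8.54, 4.23, 2.14, 4.66 and 3.92 in db/+ hearts 1 to 5. In db/db hearts it had a fold of 2.40, 2.54, 2.30, 4.09 and 3.20 in the same order. Within their own lists these folds stood at percentiles 90.1, 73.0, 13.1, 63.9 and 54.7 in db/+ hearts 1 to 5. In db/db hearts 1 to 5 the percentiles were 22.8, 20.1, 15.4, 59.7 and 64.7. The ranges of the genotypes overlapped, and a genotype difference in these percentiles was not tested. The near edge of that peak lay 119 bp from the gene's 3′ end in 9 of 10 hearts and 178 bp in db/+ heart 3. The far edge lay 594 to 831 bp away. The rise of Cat thus came without gain or loss of a listed m6A region.

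**Figure D4:**
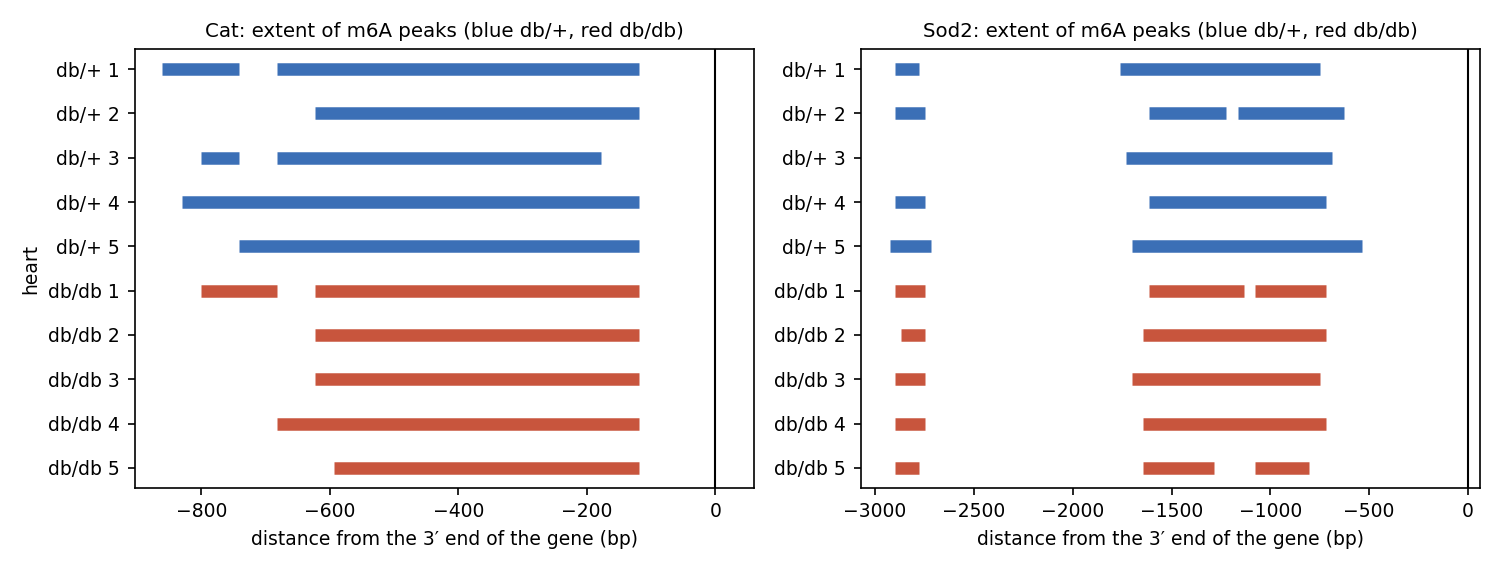
Extent of each listed m6A peak on Cat (left) and Sod2 (right) by heart, blue for db/+ and red for db/db, as distance in bp from the 3′ end of the gene, marked by the line at 0. The Cat peaks end 119 bp or 178 bp from the gene end in all hearts apart from separate pieces farther in, and the 2 Sod2 regions recur in nearly every heart.

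Sod2 had 2 regions in its 3′ untranslated part. The larger, chr17:13016357-13017581, was present in 10 of 10 hearts, and its peak with the smallest p had a fold of 3.04, 3.19, 4.55, 16.2 and 6.97 in db/+ hearts and 2.08, 7.38, 18.8, 9.04 and 2.57 in db/db hearts. In db/+ heart 2 and db/db heart 1 a second piece of the region had the higher fold, 3.62 and 5.66. The smaller, chr17:13015192-13015401, was present in 4 db/+ and 5 db/db hearts with a fold of only 1.24 to 1.70, among the weakest peaks of each list. Sod1 had 1 region, chr16:90224423-90226322, from coding sequence into the 3′ untranslated part, in all 10 hearts with a fold of 1.65 to 2.91, and its peaks reached the gene's end. Gpx3 had 1 region at its very end, chr11:54910229-54910377, in 4 hearts of each genotype (not in db/+ heart 5 or db/db heart 2), with a fold of 1.29 to 1.86.

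The NRF2-driven genes had few peaks, as did many other genes. The median number of hearts with a peak was 3 over all tested genes and 2 over those at 1 to 10 FPKM. Nqo1 had a region at its end, chr8:107388225-107388553, in 1 db/+ and 2 db/db hearts. Gclm had one at chr3:122269836-122269925 in 2 db/+ hearts, with a fold of 6.64 and 20.9, and one at chr3:122266788-122266967 in 1 db/+ heart. With every list cut to its 8462 peaks of smallest p, neither Gclm region was listed in any heart. Txnrd1 had a coding region, chr10:82883979-82884963, in db/+ heart 3 alone, listed as 4 nearly identical peaks. Each of these 4 regions was thus listed in a minority of the hearts of either genotype.

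**Figure D5:**
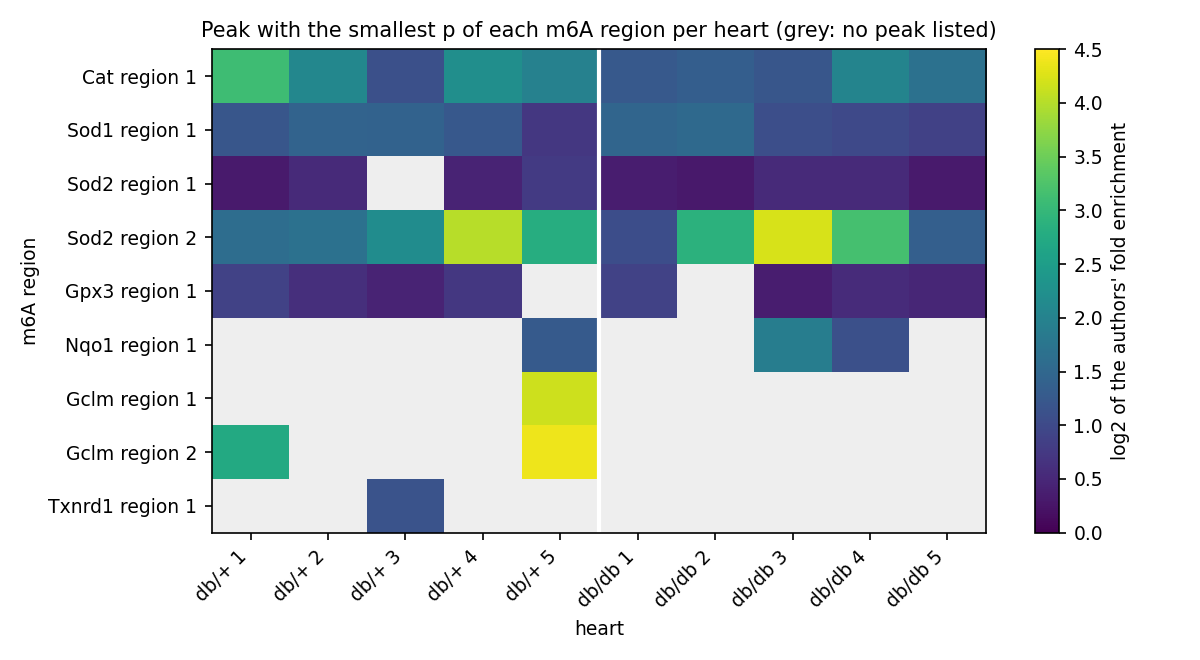
The m6A peak with the smallest p in each member region (vertical axis) and heart (horizontal axis), coloured by log2 of the authors' fold enrichment, grey where no peak is listed. Regions of Cat, Sod1, Sod2 and Gpx3 fill most columns of both genotypes, and those of Nqo1, Gclm and Txnrd1 are mostly grey.

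No member region was called as differing between genotypes. With a region called where 4 or 5 hearts of a genotype had a peak and the other genotype had 0 or 1, 0 of 9 regions were called, beside 1.69% of all 15747 regions. Fisher's exact test cannot go below 0.00794 with 5 hearts against 5, so its adjusted p over so many regions, under 0.05 for 0 of them, carries no information here, and only the unadjusted p is read. Of the 9 regions 0 had an unadjusted p under 0.05, where 0.673% of all regions did. The smallest p of a member region was that of the Gclm region with 2 db/+ hearts (exact p = 0.444). Counted by gene, 0 of the 7 genes with a peak met the same rule, beside 1.82% of 8055 genes, and 0 passed Fisher's exact test unadjusted, beside 0.67%. Member peaks numbered 7, 6, 9, 5 and 8 in db/+ hearts and 7, 4, 6, 6 and 6 in db/db hearts, means of 7.0 ± 1.58 and 5.8 ± 1.10 (SD, n = 5, exact two-sided permutation p = 0.286). Lists held 8462 to 20021 peaks, and per 10000 peaks the members had 4.79 and 4.53 (exact permutation p = 0.778).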

How the data were processed

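Groups follow the sample titles, and each animal is 1 sample in the labels. The members, gene lists and tests were chosen with earlier results of these data known. Per the labels' protocols, poly(A) messenger RNA of frozen hearts went into stranded libraries. The tools in the submitters' processing notes are HISAT2 2.1.0, Trimmomatic 0.32 and FastQC 0.11.7, with no roles, and the build is mm9. What computed FPKM and called peaks is not given in the sources used here. FPKM values were deposited by the authors for 11856 genes whose larger genotype mean was at least 0.5, so low genes had been removed. These values hold no read depth, so a count test was not possible. Per the file headers, each heart's peak list gives the authors' fold (a ratio of pulled-down to input signal) and p-value for each peak. Of 146953 lines, 5117 repeated a position on the same strand and were removed. Positions here are counted from 1, for which the deposited peak starts were raised by 1. Deposited positions follow GRCm38, since 89.9% of 11500 genes shared with the RefSeq table of that build began or ended within 50 bp of it.

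Expression was tested with limma 3.58.1 in R 4.3.3 (trend) on log2(FPKM + 1), over the 10344 genes averaging 1 FPKM or more, adjusted by Benjamini-Hochberg, as db/db minus db/+. The pseudocount understates changes of low genes. Single values were compared with exact permutation tests over 252 assignments in Python 3.11.15 with scipy 1.17.1. Peaks overlapping by at least 1 bp on a strand were merged into regions and compared by Fisher's exact test. Named genes were all members, the called genes of each list (with none called, those with the smallest p, up to 4) and the 5 nearest in course to Cat and Hmox1. Nfe2l1, Nfe2l2, Keap1, Bach1 and Sqstm1 were named after their values were seen. Alternatives covered pseudocount, filter, scaling, weights, replicate block, peak limits and each heart left out. The scripts were tested on simulated data.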

Additional observations from a re-analysis of the deposited data

Results flagged for a closer look

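In 40 groups of 5 hearts (member FPKM, member peaks and Cat differences) a heart standing far from the other 4 was looked for by Dixon's criterion, which chance alone meets in about 1 of 20 groups. Sod2 in db/db hearts had a highest value of 140.1 FPKM, in heart 5. Gclm in db/db hearts had a lowest value of 0.8125 FPKM, in heart 1. Of the log2 differences of Cat from another gene, the lowest db/+ value against Sod1 was -2.32 and the highest db/db value against Nqo1 was 1.879. Against Gclm the highest db/+ value was 4.20 and the highest db/db value 5.942. Against Txnrd1 the highest db/db value was 3.816. The Cat differences share the Cat values, so these are not separate signs.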

How the results depend on the processing

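Cat was called under 20 of 21 alternatives, with log2 changes of 0.39 to 0.47. With the replicate block the change of 0.44 had a limma adjusted p of 0.0652, and the number of members called was 0. Under that block 30 genes of all rose and 42 fell. Same-numbered hearts did not vary together (correlations of deviations -0.105 to 0.028, and no heart was closest to its own number). These values gave no sign that the numbers pair the animals, but with 5 hearts a genotype they cannot exclude it. As sign flips of 5 pairs the block left 0 of the 6 Cat differences past the threshold, where the smallest possible exact p is 0.0625. Members called numbered 1 to 2 when each heart was left out in turn. They numbered 2, with Hmox1 the second, with only genes of at least 5 FPKM (-1.06, limma adjusted p = 0.045), with array weights (-1.08, 0.0245), without db/+ heart 5 (-1.25, 0.0247) and without heart 5 of both genotypes (-1.16, 0.039). With each heart left out Hmox1 ran from -1.25 to -0.81. Its limma adjusted p over all alternatives was 0.0245 to 0.129. Direction turned for Gpx1 without db/+ heart 4 (-0.163, where leaving out single hearts gave up to 0.431) and for Sod2 without heart 5 of both genotypes (-0.006). It turned for Cat minus Gpx1 without db/+ heart 5 (-0.038, up to 0.59 with others left out), for Cat minus Gpx3 with single hearts left out (-0.221 to 0.375), and for the Nqo1 region at a peak p of at most 1e-05 (-1 heart). The Cat gain over Gclc missed the threshold in 9 alternatives, at an adjusted exact p of 0.0595 in all but the block. Other causes of these shifts were not tested. The depth behind each value is unknown, and 5 hearts a genotype limit all of them. The standard errors of the log2 differences were 0.385 for Gpx1, 0.362 for Gpx3, 0.266 for Hmox1 and 0.232 for Gclm, and at most 0.132 for the other members.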
